A study of Mus musculus with 23 samples.

Results

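A set of 10 cytokine receptor genes was followed through 9 populations of sorted mouse CD4+ T cells: Il6ra, Il6st, Il27ra, Il12rb1, Il12rb2, Il23r, Il10ra, Il17ra, Il17rb and Ifngr1. A gene was measured when a probe set of the Affymetrix M430v2 array was annotated to it alone. Of the 10 genes, 9 had at least 1 such probe set, 16 probe sets in all, out of 18193 genes on the array that a probe set names alone. Il23r was not analysed here. All 9 measured genes passed the filter on dim genes and were among the 12516 genes tested. Il12rb2 passed it only through LP Tconv and the homeostatic Foxp3+ cells, whose group means lay above the filter.

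RNA was measured on 23 arrays, each from cells pooled over several mice aged 6 to 10 weeks and labelled male, all sorted as CD3+ and CD4+ and negative for B220, CD8a and CD11b/c. Of the 9 groups, 5 came from C57BL/6-Foxp3/GFP mice, in which GFP reports Foxp3, with 2 arrays each and 4 to 6 mice per array. They were LP Treg (Foxp3-GFP+) and LP Tconv (Foxp3-GFP-) of the small intestinal lamina propria, and Foxp3-GFP+ cells of peripheral lymph nodes sorted by both markers as CD103-Klrg1-, as CD103+Klrg1- or as CD103+Klrg1+ cells. For the homeostatic groups, Foxp3-GFP- CD4+ cells of BDC2.5/NOD mice, which carry a transgenic receptor for an islet antigen, were moved into NOD RAG-/- hosts, which make neither T nor B lymphocytes. After 14 days the Foxp3-GFP+ and Foxp3-GFP- cells were sorted from spleen and lymph nodes, with 3 arrays each and 2 to 3 mice per array. For the DEC groups, CD4+CD25- cells of HA6.5/Thy1.2/RAG-/-/Balb/c mice were transferred to Balb/c mice that received 1 injection of 50 ng DEC-HA peptide, which aims the antigen at dendritic cells. After 3 weeks CD25+ (3 arrays) and CD25- (4 arrays) cells were sorted, with 5 to 10 mice per array. The DEC sort used CD25 and not a Foxp3 reporter, and strain, host and treatment differ together between the 3 systems, so these cannot be told apart.

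The values were log2 intensities of the deposited data, on which a step of 1 is a factor of 2 in brightness. A gene was called in a comparison when its Benjamini-Hochberg adjusted p from limma, over all 12516 genes, lay under 0.05. Group means under 6.27, the median of all values, were treated as dim, and a fold against a dim group is given as "at least". CD4 T cell markers averaged 11.09 to 11.53 in every group, and Foxp3 stood at 10.35 to 11.21 in the 6 groups sorted as Treg-like and at 4.65 and 4.76 in both Foxp3-GFP- groups, as labelled. Foxp3 was at 7.97 in DEC CD25-, above the filter. Against the sort for cells negative for CD8a and CD11b/c, 2 other lists were highest in homeostatic Foxp3+ and Foxp3- cells. CD8 T and NK markers averaged 7.73 and 8.28 there, and myeloid markers 8.11 and 8.44, with 7.63 in DEC CD25+ cells. DEC CD25- replicates 3 and 4 stood apart: their median intensities were 68.5 and 63.7, against 75.5 to 81.1 on the other arrays, and replicate 3 had a Gapdh 3′ minus 5′ difference of 6.59 against 1.63 to 3.92 elsewhere. Since all arrays share 1 estimate of the spread, these arrays entered every test, and results that changed without them are given both ways. In bulk samples, fewer cells of a type and less RNA per cell cannot be told apart.

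These genes encode chains of receptors that work in pairs. IL-6 binds Il6ra and then gp130, the product of Il6st, which IL-27 also uses together with Il27ra. Il12rb1 joins Il12rb2 to bind IL-12 or Il23r to bind IL-23, Il10ra joins Il10rb, Il17ra joins Il17rc for IL-17A or Il17rb for IL-25, and Ifngr1 joins Ifngr2 for interferon-gamma. All but the IL-17 receptors signal through JAK kinases and STAT factors. In the gut, IL-6 and IL-23 are known for their part in Th17 cells, IL-12 for Th1 cells, and IL-10 for restraint of inflammation.

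The promoter sequence upstream of a start site is shown for 3 of the genes with called differences between LP Treg and lymph node subsets. Of the 10 genes, 6 have an entry in the RefSeq promoter table (build GRCm38.p6). For Il6ra (chr3:89913197-89913316, minus strand) and Ifngr1 (chr10:19591829-19591948, plus strand) the 120 bases before the annotated start are shown, and for Il17rb (chr14:30008983-30009012, minus strand) the 30 bases around a motif match. Capitals mark matches to the AP-1 motif TGANTCA or the GC box GGGCGG.
Il6ra: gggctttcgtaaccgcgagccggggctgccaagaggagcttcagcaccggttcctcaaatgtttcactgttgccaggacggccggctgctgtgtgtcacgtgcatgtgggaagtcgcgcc
Ifngr1: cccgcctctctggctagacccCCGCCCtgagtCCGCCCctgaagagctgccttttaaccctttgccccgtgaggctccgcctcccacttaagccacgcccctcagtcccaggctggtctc
Il17rb: tcctcccgggccTGAGTCAttcgcaccccg
Over 250 upstream bases and both strands, 5 motifs were searched in the 6 promoters and in all 32851 promoters of the table. The AP-1 motif was found in Il17rb alone of the 6, at 104 to 98 bases before the start, and in 6.75% of all promoters. The GC box, which ends in the same letters on the other strand as CCGCCC, was found in Ifngr1, at 99 to 94 and 88 to 83 bases, in Il17rb and in Il6st, and in 32.7% of all. The STAT motif TTCNNNGAA was found in Il12rb2 alone and in 7.02% of all, and neither the IRF element (2.98% of all) nor the RUNX motif TGTGGT (14.0% of all) was found in the 6. The AP-1 match overlaps none of the GC boxes.

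**Figure D1:**
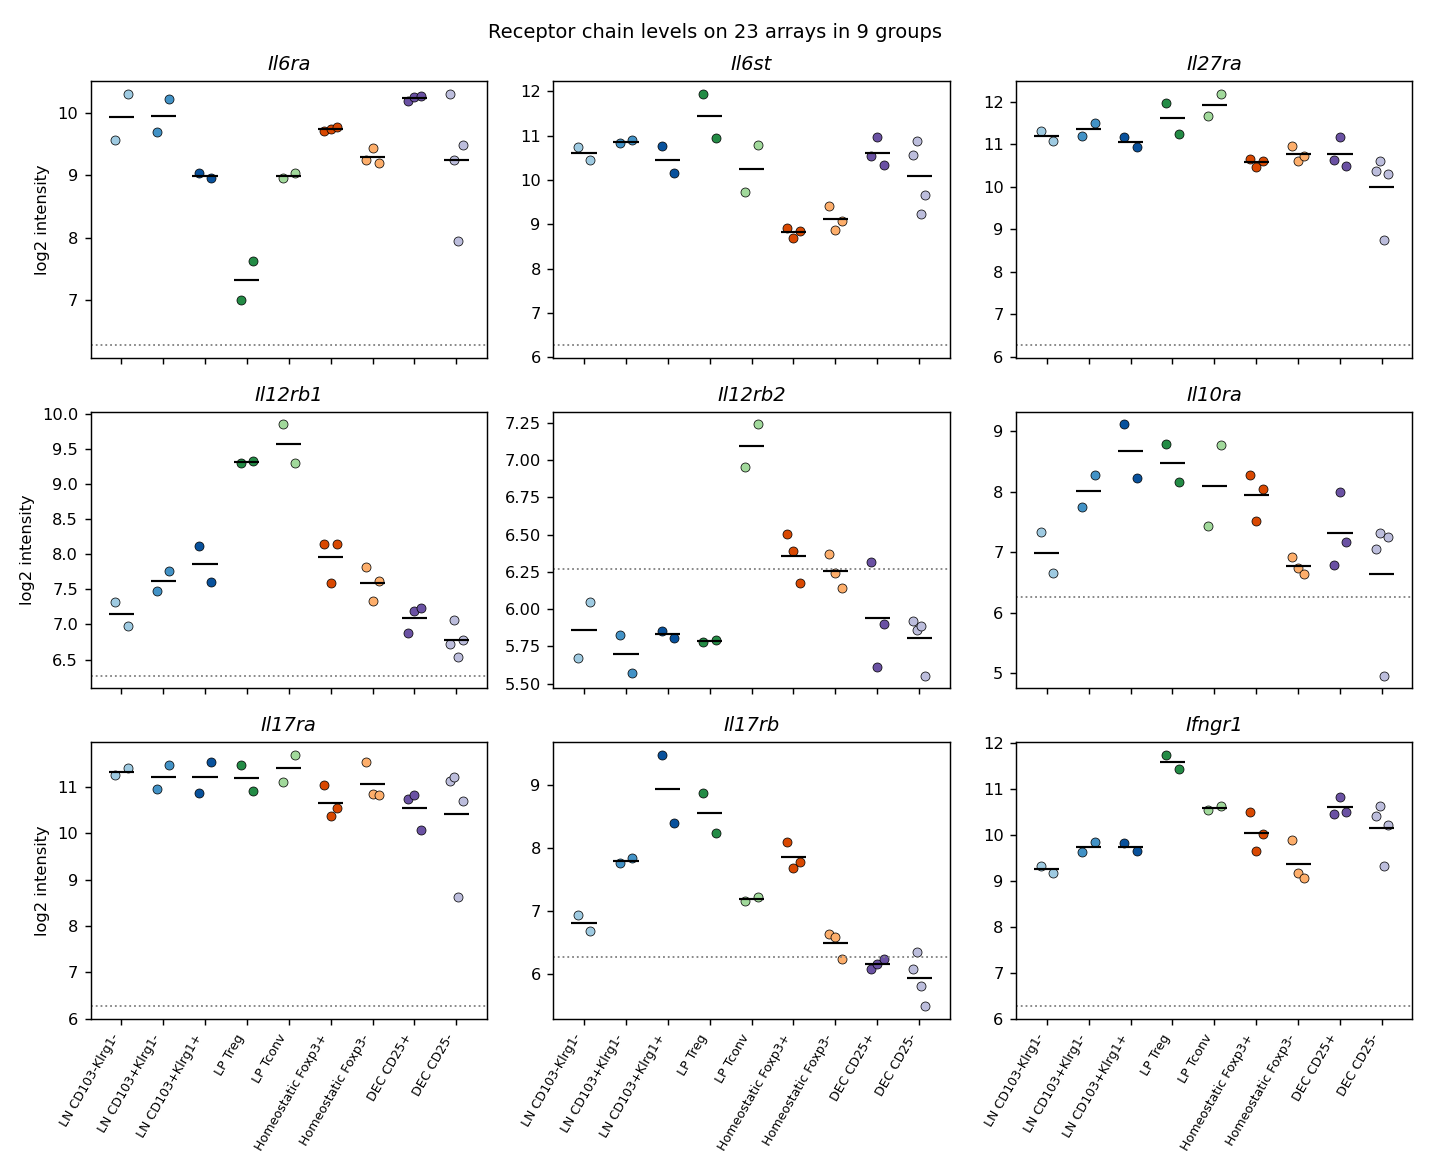
Log2 intensity of the 9 receptor chains (1 panel a gene, the probe set with the highest mean) on each of the 23 arrays, by group; points are arrays, bars are group means and the dotted line is the filter at 6.27. Il6ra is lowest in LP Treg, Ifngr1 is highest there, and both gut groups stand highest for Il12rb1.

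Gut Treg cells differed from lymph node Treg cells in 4 of the chains and from their Foxp3- neighbours in 2. In LP Treg, Il12rb1 and Ifngr1 were higher than in each of the 3 lymph node subsets. Il6ra was lower than in the CD103-Klrg1- and CD103+Klrg1- subsets but was not called against CD103+Klrg1+ cells, and Il17rb was called higher against the CD103-Klrg1- subset. Against LP Tconv, Il17rb was higher in LP Treg, and Il12rb2, admitted to the test by its level in LP Tconv and homeostatic Foxp3+ cells, was lower. Il17rb was also the single called chain among homeostatic cells, where Foxp3+ exceeded Foxp3- cells, and among the lymph node subsets, where CD103+Klrg1+ exceeded CD103-Klrg1- cells.

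Counts of called chains stand against the share of all 12516 tested genes that were called. In LP Treg over LP Tconv 2 of 9 chains were called (1 higher, 1 lower), with 2.70% of all genes. The lower one was Il12rb2, which passed the filter only through LP Tconv and homeostatic Foxp3+ cells, so its call is not independent of the filter. With the filter on the overall mean the count was 1, with 281 of 11303 genes called, and with the 4 gut arrays alone it was 0. In homeostatic Foxp3+ over Foxp3- 1 of 9 was called (higher), with 1.76% of all genes. In DEC CD25+ over CD25- 0 of 9 were called by limma, with 0.495% of all genes. Among the lymph node subsets, CD103+Klrg1- over CD103-Klrg1- gave 0 of 9 (0.0959% of all), CD103+Klrg1+ over CD103-Klrg1- 1 of 9 (higher, 2.10% of all) and CD103+Klrg1+ over CD103+Klrg1- 0 of 9 (0.647% of all). LP Treg over CD103-Klrg1- gave 4 of 9 (3 higher, 1 lower, 4.55% of all), over CD103+Klrg1- 3 of 9 (2 higher, 1 lower, 2.63% of all) and over CD103+Klrg1+ 2 of 9 (both higher, 2.05% of all). The last 3 share the LP Treg arrays with each other and with LP Treg over LP Tconv, and each lymph node subset stands in several comparisons, so their counts are not independent. At an unadjusted p under 0.05 limma gave 2 of 9 chains in DEC (Il6ra and Il27ra), with 14.8% of all genes. It gave 1 of 9, Il17rb, in CD103+Klrg1- over CD103-Klrg1- (2.04% of all) and in CD103+Klrg1+ over CD103+Klrg1- (3.83% of all). The median difference of the 9 chains was 0.85 in LP Treg over CD103-Klrg1-, beside 0.05 over all tested genes. That value is the difference of Il6st, which limma did not call (adjusted p 0.438) and which was 0.32 with the mean of its probe sets. The other medians were 0.46 over CD103+Klrg1- (beside 0.06), -0.02 over CD103+Klrg1+ (beside 0.05) and -0.21 in LP Treg over LP Tconv, beside -0.01. Since the chains were chosen with results of these data known, the medians are not read as a shift of the set.

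**Figure D2:**
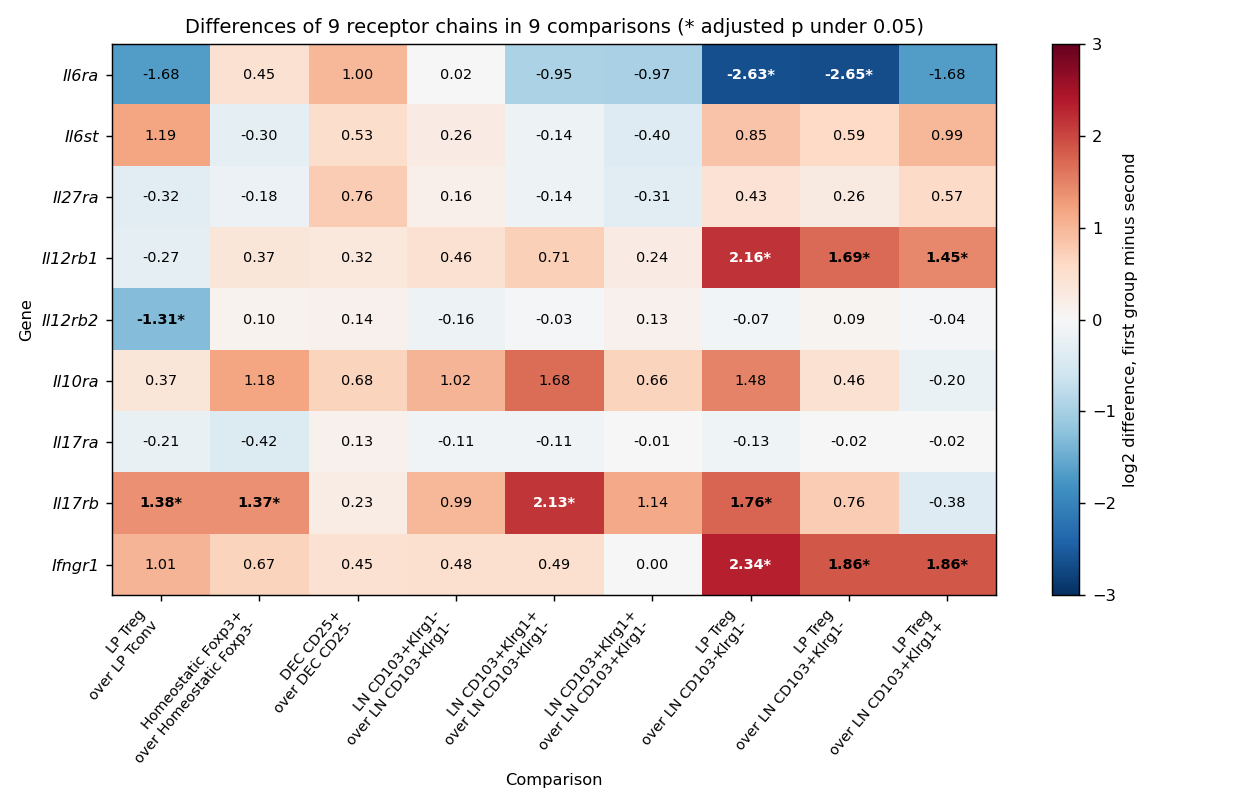
Log2 difference of each chain (rows) in the 9 comparisons (columns), first group minus second, with red for higher and blue for lower in the first group; an asterisk marks an adjusted p under 0.05. The called values lie in the rows of Il6ra, Il12rb1, Il12rb2, Il17rb and Ifngr1, and the DEC column has none.

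Il6ra, the chain that binds IL-6 itself, stood at 6.995 and 7.63 in LP Treg and at 8.95 and 9.03 in LP Tconv. It stood at 9.57 and 10.31 in CD103-Klrg1-, at 9.70 and 10.22 in CD103+Klrg1- and at 9.03 and 8.96 in CD103+Klrg1+ cells. The 2 LP Treg arrays were lower than every other array, the nearest being DEC CD25- replicate 3 at 7.94. The homeostatic arrays were at 9.72, 9.75 and 9.78 in Foxp3+ and at 9.24, 9.44 and 9.20 in Foxp3- cells. DEC CD25+ arrays were the highest group, at 10.19, 10.27 and 10.27, and DEC CD25- arrays were scattered, at 10.31, 9.24, 7.94 and 9.48. In the order of group means, only the steps from homeostatic Foxp3+ to Foxp3- and from LP Tconv to LP Treg separated neighbours whose arrays did not overlap.

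Il6ra was 6.19-fold lower in LP Treg than in CD103-Klrg1- cells (log2 difference -2.63 ± 0.47 SE, adjusted p 0.00202) and 6.27-fold lower than in CD103+Klrg1- cells (-2.65 ± 0.47, adjusted p 0.00378). Both calls were lost when LP Treg replicate 1 was left out (adjusted p 0.0546 and 0.0930), or replicate 2 of the respective lymph node subset (0.0520 and 0.0699), and over all alternatives the adjusted p ran from 1.10e-05 to 0.0546 and from 1.09e-05 to 0.0930. Against CD103+Klrg1+ cells the difference was -1.68 ± 0.47 (adjusted p 0.0825) and against LP Tconv -1.68 ± 0.47 (adjusted p 0.0698), neither of them called. Without the 2 dim DEC CD25- arrays those differences were the same and their adjusted p values were 0.00321 and 0.00228. Their ranges over the alternatives were 0.00254 to 0.662 and 0.00228 to 0.589. In the fit with a replicate block these were 0.0478 and 0.0445. In DEC CD25+ over CD25- the difference was 1.00 ± 0.36 (adjusted p 0.236), and 0.47 without both dim arrays.

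The second Il6ra probe set gave another picture. It lay between 6.72 and 7.71 on all 23 arrays, its group means spanned 0.51, and over the 9 group means its correlation with the first was -0.13. On its own it differed by 0.20 ± 0.20 between LP Treg and CD103-Klrg1- cells (adjusted p 0.723 over 21612 probe sets). With the mean of both probe sets in place of the brighter one, LP Treg was lower than CD103-Klrg1- by -1.21 (adjusted p 0.00984). Against CD103+Klrg1- cells that mean was lower by -1.26 (adjusted p 0.0134) and against LP Tconv by -0.81 (adjusted p 0.152).

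Il6st, which encodes gp130 and passes the signal of IL-6 and IL-27 into the cell, was at 11.95 and 10.96 in LP Treg and at 9.74 and 10.78 in LP Tconv. Lymph node arrays lay between 10.15 and 10.89, DEC arrays between 9.23 and 10.97, and homeostatic arrays were low, between 8.69 and 9.41. LP Treg stood above LP Tconv and above the lymph node arrays without overlap, but no comparison called Il6st. The difference was 1.19 ± 0.46 over LP Tconv (adjusted p 0.318) and 0.59 to 0.99 over the lymph node subsets (adjusted p 0.438 to 0.664). Its 4 probe sets disagreed: a set at 7.07 to 10.82 was lower in LP Treg than in CD103-Klrg1- cells by -1.42 ± 0.54 (adjusted p 0.168), while a set at 4.74 to 7.37 was higher by 1.28 ± 0.38 (adjusted p 0.0607). The correlation of the bright pair over group means was -0.07, and both dim sets correlated with the brightest at 0.83 and 0.88.

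Il27ra, the chain specific for IL-27, lay between 10.29 and 12.19 on all arrays but DEC CD25- replicate 3, which was at 8.75. LP Tconv was at 11.66 and 12.19, LP Treg at 11.97 and 11.25, and every pair of neighbouring groups overlapped. No comparison called it: LP Treg minus LP Tconv was -0.32 ± 0.43 (95% interval -1.22 to 0.59) and DEC CD25+ minus CD25- was 0.76 ± 0.33 (adjusted p 0.297), or 0.28 without both dim arrays.

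Il12rb1, shared by the IL-12 and IL-23 receptors, was highest in the gut. It stood at 9.29 and 9.32 in LP Treg and at 9.85 and 9.30 in LP Tconv, above every array of the other 7 groups, whose highest were 8.14 in homeostatic Foxp3+ cells. Lymph node arrays were at 7.32 and 6.98 in CD103-Klrg1-, at 7.47 and 7.76 in CD103+Klrg1- and at 8.12 and 7.60 in CD103+Klrg1+ cells. The DEC arrays ran from 6.53 to 7.23 and overlapped those of CD103-Klrg1- cells. LP Treg exceeded CD103-Klrg1- cells 4.46-fold (2.16 ± 0.26, adjusted p 5.08e-05), CD103+Klrg1- cells 3.23-fold (1.69 ± 0.26, adjusted p 0.00113) and CD103+Klrg1+ cells 2.73-fold (1.45 ± 0.26, adjusted p 0.00368). The first 2 held in all 14 alternatives each. The last was lost without CD103+Klrg1+ replicate 2 (1.19, adjusted p 0.108) and held in the other 13, with adjusted p from 0.000671. LP Treg minus LP Tconv was -0.27 (95% interval -0.81 to 0.28).

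Il12rb2 completes the IL-12 receptor and is known as a gene of Th1 cells. It was at 6.95 and 7.24 in LP Tconv and at 5.78 and 5.79 in LP Treg, so that the gut groups did not overlap. Of the other groups, only homeostatic Foxp3+ cells, at 6.501, 6.39 and 6.18, had a mean over the filter. The lymph node arrays lay between 5.57 and 6.05 and the DEC arrays between 5.55 and 6.32, in the range of dim probe sets. LP Treg was at least 2.48-fold lower than LP Tconv (-1.31 ± 0.22, adjusted p 0.00132), fitted with a gene that the filter admitted only through its high groups. With no filter at all the adjusted p was 0.00115, and the filter on the overall mean leaves the gene out. The call held in 12 of 13 alternatives and was lost where the 4 gut arrays were fitted alone (adjusted p 0.196, range 0.000231 to 0.196). In the lymph node and DEC comparisons both groups were dim, so a difference in Il12rb2 between them has no measured size. Il12rb2 and Il23r are neighbouring genes on chromosome 6.

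Differences between comparisons were tested as well. The LP difference for Il12rb2 was lower than the homeostatic difference by -1.41 ± 0.28 (adjusted p 0.0163) and lower than the DEC difference by -1.45 ± 0.27 (adjusted p 0.0114). LP Treg, homeostatic Foxp3- cells and both DEC groups were dim for Il12rb2, so these are fitted values and not measured sizes. A DEC difference could not be measured between dim groups, and the calls draw on LP Tconv, a group that admitted the gene to the test. They therefore add no support beyond the level of LP Tconv. In these tests of the difference between comparisons, LP against homeostatic called 1 of 9 chains (0.775% of all genes), LP against DEC 2 of 9 (1.01% of all) and homeostatic against DEC 0 of 9 by limma (0.336% of all), with 1 of 9, Il17rb, at an unadjusted p under 0.05, beside 8.41% of all genes. The second chain was Il6ra, lower in LP Treg than in LP Tconv by -1.68 but at 1.00 in DEC, a difference of -2.68 ± 0.59 (adjusted p 0.0307). The Il6ra difference between the LP and homeostatic comparisons was -2.13 ± 0.60 (adjusted p 0.158), and its adjusted p was 0.00690 without both dim arrays, over a range of 0.00690 to 0.704. Leaving out single arrays ended the Il12rb2 call against the homeostatic pair in 5 of 10 cases and against the DEC pair in 2 of 11, and the Il6ra call in 6 of 11. The arrays concerned were LP Treg replicate 1 or 2, LP Tconv replicate 2, homeostatic Foxp3+ replicate 1 or homeostatic Foxp3- replicate 3 for the first (adjusted p 0.0508 to 0.101), and LP Treg replicate 1 or LP Tconv replicate 2 for the second (0.0681 and 0.0836). For Il6ra they were LP Treg replicate 1 or 2, LP Tconv replicate 2 and each DEC CD25+ array (0.0534 to 0.220). Without both dim DEC CD25- arrays the Il6ra value was -2.15 (adjusted p 0.0118) and the Il12rb2 value against DEC -1.36 (adjusted p 0.0209). With the mean of both Il6ra probe sets the Il6ra value was -1.23 (adjusted p 0.0998). Adjusted p over all alternatives ran from 0.00323 to 0.351 for Il6ra, and for Il12rb2 from 0.00483 to 0.101 against the homeostatic and from 0.00473 to 0.184 against the DEC pair.

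Il10ra, the chain that binds IL-10, was at 9.11 and 8.23 in CD103+Klrg1+, at 7.75 and 8.27 in CD103+Klrg1- and at 7.33 and 6.65 in CD103-Klrg1- cells. Gut arrays were at 8.79 and 8.16 in LP Treg and at 7.44 and 8.76 in LP Tconv. Homeostatic Foxp3+ cells, at 8.28, 7.51 and 8.04, stood above Foxp3- cells, at 6.92, 6.75 and 6.64, without overlap. No difference was called, the largest being 1.68 ± 0.63 for CD103+Klrg1+ over CD103-Klrg1- (adjusted p 0.363) and 1.48 ± 0.63 for LP Treg over CD103-Klrg1- (adjusted p 0.266). Both were called with array weights (adjusted p 0.00769 and 0.0153), and the second also with its arrays alone (0.0362). Their ranges reached 1.00 and 0.844. In the homeostatic pair the difference was 1.18 ± 0.52 (adjusted p 0.565). The homeostatic difference was called in 2 of 16 alternatives, with array weights (1.29, adjusted p 0.00117) and with its 6 arrays alone (adjusted p 0.0111), over a range up to an adjusted p near 1.00. DEC CD25+ arrays lay between 6.80 and 8.002, with no call against CD25- cells (0.68 ± 0.48, adjusted p 0.515). The spread of Il10ra within groups was wide, with an SD of 1.13 in DEC CD25-, where replicate 3 was at 4.96 and the other 3 arrays between 7.05 and 7.32. Of its 3 probe sets, one at 6.37 to 7.13 followed the brightest over group means (correlation 0.76) and one at 4.38 to 5.02 did not (-0.37).

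Il17ra, the chain common to the IL-17 receptors, varied least: its group means spanned 0.99, from 10.42 to 11.40. Apart from DEC CD25- replicate 3 at 8.63, its arrays lay between 10.07 and 11.69, and all neighbouring groups overlapped. Its differences in the 9 comparisons ran from -0.42 to 0.13 with standard errors of 0.46 to 0.60, so that changes of about 1 on the log2 scale were within the 95% intervals. Its second probe set followed the first (correlation 0.93 over group means) with a wider span of 1.98.

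Il17rb, which pairs with Il17ra to bind IL-25, differed between groups over the widest span, 3.01. It was at 9.49 and 8.40 in CD103+Klrg1+, at 7.77 and 7.84 in CD103+Klrg1- and at 6.93 and 6.69 in CD103-Klrg1- cells, so that the 3 lymph node subsets did not overlap. LP Treg was at 8.89 and 8.25 and LP Tconv at 7.16 and 7.22. Homeostatic Foxp3+ cells were at 8.10, 7.68 and 7.78 and Foxp3- cells at 6.64, 6.59 and 6.24. Within the lymph node, gut and homeostatic cells in turn, the Klrg1+ or Foxp3+ arrays were the higher ones without overlap. Lymph node and gut cells came from the same strain and are not separate systems. The DEC arrays were low in both groups, from 6.08 to 6.24 in CD25+ and from 5.49 to 6.35 in CD25- cells.

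CD103+Klrg1+ cells exceeded CD103-Klrg1- cells 4.39-fold in Il17rb (2.13 ± 0.31, adjusted p 0.000446), a call kept in 13 of 14 alternatives and lost with the 4 arrays alone (adjusted p 0.0646, range 2.37e-05 to 0.0646). The steps on either side of CD103+Klrg1- cells were not called: 0.99 ± 0.31 above CD103-Klrg1- (adjusted p 0.831) and 1.14 ± 0.31 below CD103+Klrg1+ (adjusted p 0.161). The latter was called without CD103+Klrg1+ replicate 2 (1.68, adjusted p 0.0255, range 0.0165 to 1.00). Homeostatic Foxp3+ cells exceeded Foxp3- cells 2.58-fold (1.37 ± 0.25, adjusted p 0.00539), in all 16 alternatives. LP Treg exceeded LP Tconv 2.60-fold (1.38 ± 0.31, adjusted p 0.0174), but this call was lost without LP Treg replicate 1 (1.06, adjusted p 0.337) or LP Tconv replicate 1 or 2 (adjusted p 0.0654 and 0.0906), with array weights (0.141) or with the 4 gut arrays alone (0.257). It held in 9 of 14 alternatives, over a range of 0.00689 to 0.337. LP Treg exceeded CD103-Klrg1- cells 3.38-fold (1.76 ± 0.31, adjusted p 0.00202), a call lost without LP Treg replicate 1 (1.44, adjusted p 0.0650, range 0.000259 to 0.0650). Against CD103+Klrg1+ cells LP Treg was at -0.38 (95% interval -1.03 to 0.28). The DEC difference was 0.23 ± 0.24 between 2 dim groups, and the homeostatic difference exceeded it by 1.14 ± 0.35, which was not called (adjusted p 0.263).

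**Figure D3:**
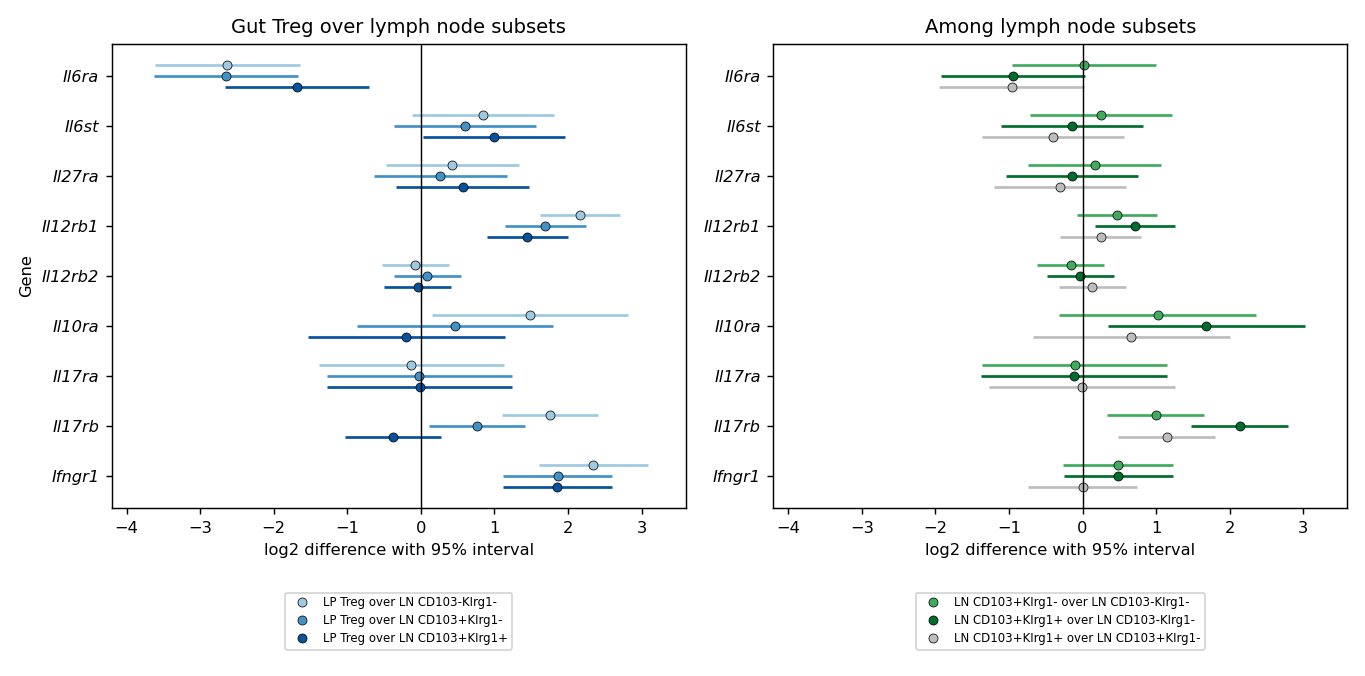
Log2 differences with 95% intervals (limma) of the 9 chains for LP Treg over each lymph node subset (left) and among the lymph node subsets (right); 2 arrays a group. On the left Il6ra lies below 0 and Il12rb1 and Ifngr1 above 0 in all 3 comparisons, and on the right Il17rb lies farthest from 0, at 2.13 for CD103+Klrg1+ over CD103-Klrg1-.

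Ifngr1, the chain that binds interferon-gamma, was at 11.74 and 11.44 in LP Treg, above all 21 other arrays. LP Tconv was at 10.53 and 10.62. Lymph node arrays were low, at 9.32 and 9.17 in CD103-Klrg1-, at 9.62 and 9.84 in CD103+Klrg1- and at 9.81 and 9.65 in CD103+Klrg1+ cells. Homeostatic arrays ran from 9.65 to 10.49 in Foxp3+ and from 9.05 to 9.89 in Foxp3- cells, and DEC arrays from 10.45 to 10.83 in CD25+ and from 9.32 to 10.62 in CD25- cells. LP Treg exceeded CD103-Klrg1- cells 5.07-fold (2.34 ± 0.35, adjusted p 0.000538), in all 14 alternatives. It exceeded CD103+Klrg1- cells 3.63-fold (1.86 ± 0.35, adjusted p 0.00567) and CD103+Klrg1+ cells 3.62-fold (1.86 ± 0.35, adjusted p 0.00599). These 2 calls were each lost without LP Treg replicate 1 (adjusted p 0.118 and 0.115), and without CD103+Klrg1- replicate 1 (adjusted p 0.0821) or CD103+Klrg1+ replicate 2 (0.0858). The lowest adjusted p over the alternatives was 8.98e-05 and 0.000180. LP Treg minus LP Tconv was 1.01 ± 0.35 (adjusted p 0.222), and 0.0429 without both dim DEC CD25- arrays, over a range of 0.0235 to 0.860. With the replicate block it was 0.0433.

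RNA quality and other cell types were checked beside the gut results. The Actb 3′ minus 5′ difference was 0.96 and 1.05 on the LP Treg arrays and 1.60 to 2.21 on the lymph node arrays, and that of Gapdh 2.42 and 2.65 against 2.80 to 3.15, without overlap in either. On the LP Tconv arrays they were 0.80 and 2.14 for Actb and 1.63 and 3.17 for Gapdh. The part of RNA quality in the differences between LP Treg and the lymph node subsets was not tested. B cell markers averaged 6.23 to 6.35 on the LP Treg arrays and 6.85 to 8.25 on the lymph node arrays, and of 4 tested, Ms4a1, which encodes CD20, was lower in LP Treg than in each lymph node subset (at least -2.86 to -4.13, adjusted p 1.07e-05 to 0.000311). Blnk was lower than in CD103+Klrg1+ cells as well (at least -1.94, adjusted p 0.0296). The part of B cell RNA in the lower Il6ra of LP Treg was not tested. Myeloid markers averaged 6.60 to 6.63 on LP Treg arrays and 6.31 to 7.01 on lymph node arrays. In the 3 comparisons 0 of 9 tested were called, beside 2.05% to 4.55% of all genes. The homeostatic and DEC CD25+ arrays held more myeloid signal, from 7.53 to 9.29 and from 7.004 to 7.96, with 9 of 10 marker means above the filter in each of these groups, and its part in their receptor levels was not tested. Between LP Treg and LP Tconv the myeloid averages were 6.61 and 6.46. Klrd1, an NK cell receptor chain, was lower in LP Treg than in LP Tconv (at least -2.80 ± 0.72, adjusted p 0.0438), with 2.70% of all genes called. It was also lower in homeostatic Foxp3+ than in Foxp3- cells (-2.53 ± 0.59, adjusted p 0.0308), with 1.76% of all genes called. These stand beside the differences in Il12rb2 and Il17rb. The whole list of 5 CD8 T and NK markers averaged 5.70 to 6.01 on LP Treg and 6.31 to 6.63 on LP Tconv arrays, and 7.17 to 8.21 on homeostatic Foxp3+ and 8.21 to 8.39 on Foxp3- arrays. Of the 5 markers, 1 in LP Treg and 2 in LP Tconv had a group mean above the filter, so the gut averages rest mostly on dim probe sets. In each homeostatic group 4 did. The part of CD8 T or NK cells in the differences of Il12rb2 and Il17rb was not tested.

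Partner chains were looked at next. Of 9 other receptor chains that were tested, out of 16 listed, 1 was called in 1 of the 9 comparisons. The share of all genes called ran from 0.0959% to 4.55% over these comparisons, so the count is not read as a result about partner chains. Il17re, a chain of the IL-17 receptor family, was lower in LP Treg than in LP Tconv (-1.17 ± 0.19, adjusted p 0.000968), where 2.70% of all genes were called. Ifngr2, the partner of Ifngr1, stood at 6.52 in LP Treg and 6.60 to 6.92 in the lymph node subsets, and its difference from CD103-Klrg1- cells was not called. Il10rb, the partner of Il10ra, was at 9.19 in LP Treg and 9.002 to 9.18 in lymph nodes. Il17rc was at 7.03 in LP Treg and 7.45 in LP Tconv and was not called.

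Among 9 tested ligands of 19 listed, 5 were called between LP Treg and LP Tconv, with 2.70% of all genes. The list median was -0.29, beside -0.01 for all genes. Il10 and Ebi3, a subunit of IL-27, were higher in LP Treg (3.98 ± 0.50 and 2.32 ± 0.42, adjusted p 7.95e-05 and 0.00318). Il17a, Ifng and Il21 were lower (-4.25 ± 0.33, -2.87 ± 0.41 and at least -4.99 ± 0.70). In the gut, LP Tconv thus had the higher Ifng and Il17a signal and LP Treg the higher Il10 signal. Against CD103-Klrg1- cells, LP Treg was higher in Il10 (6.91 ± 0.50), Ebi3 (2.00 ± 0.42) and Ifng (2.24 ± 0.41), with 4.55% of all genes called. In DEC CD25+ over CD25- cells, where no receptor chain and 0.495% of all genes were called, Il10 and Ebi3 were higher (1.83 ± 0.38 and 1.52 ± 0.32). Il6 was listed at a mean of 3.05 to 4.00 in all 9 groups, below the filter.

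**Figure D4:**
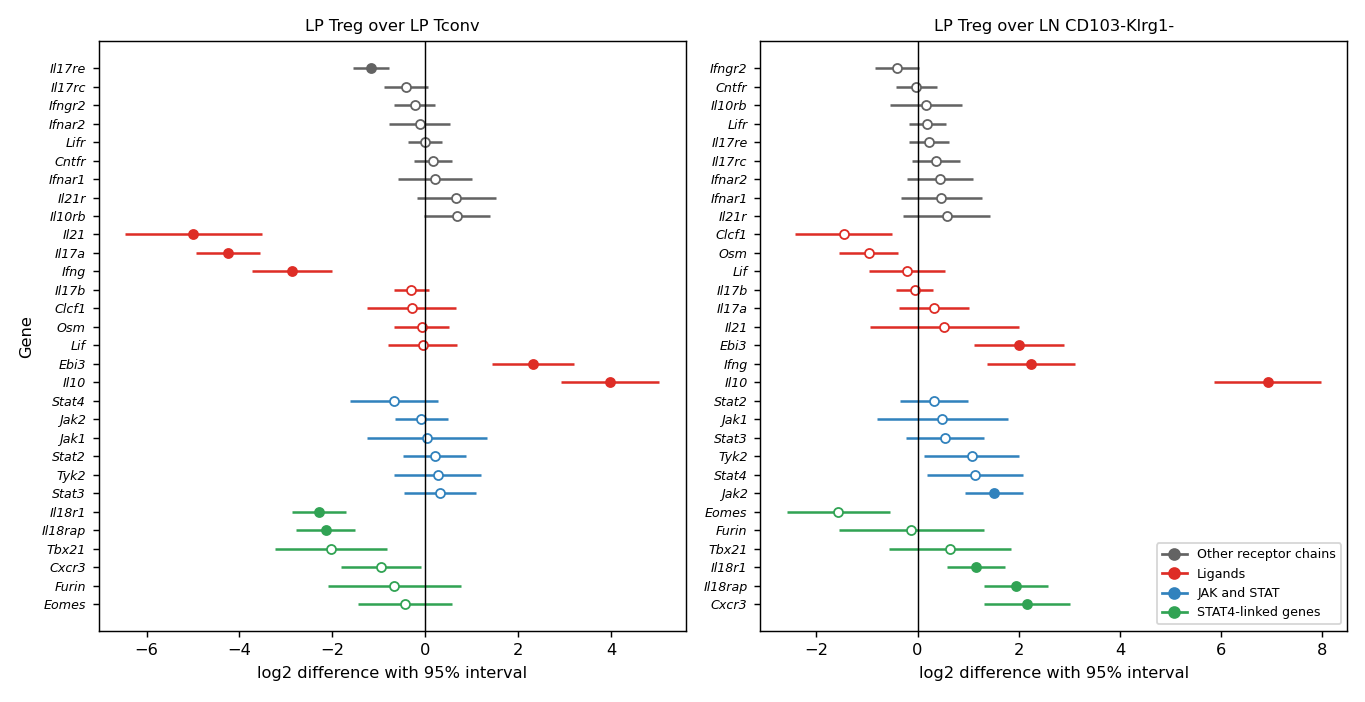
Log2 differences with 95% intervals of the tested partner chains (grey), ligands (red), JAK and STAT genes (blue) and STAT4-linked genes (green), for LP Treg over LP Tconv (left) and over CD103-Klrg1- cells (right); filled points have an adjusted p under 0.05. Il10 lies farthest to the right in both panels, and Il17a, Ifng and Il21 lie to the left of 0 in the left panel alone.

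Signalling genes were tested as lists. Of 6 JAK and STAT genes, 0 were called between LP Treg and LP Tconv, with 2.70% of all genes. Jak2, a kinase bound to the interferon-gamma and IL-12 receptors, was higher in LP Treg than in each lymph node subset (1.52 ± 0.27, 1.34 ± 0.27 and 1.10 ± 0.27, adjusted p 0.00213, 0.00918 and 0.0400). Stat4, which acts below the IL-12 receptor, was higher in LP Treg than in CD103+Klrg1+ cells (1.82 ± 0.45, adjusted p 0.0409). Of all genes, 4.55%, 2.63% and 2.05% were called against CD103-Klrg1-, CD103+Klrg1- and CD103+Klrg1+ cells. The JAK and STAT list had a median of 0.80 in LP Treg over CD103-Klrg1- cells, beside 0.05 for all genes. Of 10 genes for feedback and IL-17 adaptors, Ptpn6, a phosphatase, was lower in LP Treg than in CD103-Klrg1- cells (-1.15 ± 0.31, adjusted p 0.0402, beside 4.55% of all genes called). In the other 8 comparisons 0 were called, beside 0.0959% to 2.70% of all genes.

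Of 17 interferon-gamma response genes, 2 were called higher in LP Treg than in LP Tconv, with 2.70% of all genes. They were the guanylate-binding protein genes Gbp3 (1.53 ± 0.27, adjusted p 0.00224) and Gbp7 (1.44 ± 0.34, adjusted p 0.0243), with a list median of 0.16. Against CD103-Klrg1- cells, where Ifngr1 was 2.34 higher, 2 were called, with 4.55% of all genes. They were Cxcl10 (3.29 ± 0.71, adjusted p 0.00926) and Icam1 (1.55 ± 0.31, adjusted p 0.00577), with a list median of 0.50 beside 0.05. Against CD103+Klrg1- cells Cxcl10 alone was called (2.63% of all), and against CD103+Klrg1+ cells 0 of 17 (2.05% of all). In homeostatic Foxp3+ over Foxp3- cells Iigp1, Gbp3 and Gbp2 were higher (2.38 ± 0.27, 1.64 ± 0.22 and 1.11 ± 0.26), with 1.76% of all genes called. In DEC CD25+ over CD25- cells Icam1 was (1.32 ± 0.24), with 0.495% of all genes called. The part of the myeloid, CD8 T and NK marker signal of the homeostatic arrays in these values was not tested.

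Of 6 tested STAT4-linked genes, Il18r1 and Il18rap, both chains of the IL-18 receptor, were lower in LP Treg than in LP Tconv (-2.28 ± 0.27 and -2.14 ± 0.30, adjusted p 4.81e-05 and 0.000261), beside the lower Il12rb2. Of all genes, 2.70% were called there. The direction was the other against CD103-Klrg1- cells, where Il18r1, Il18rap and Cxcr3 were higher in LP Treg (1.15 ± 0.27, 1.94 ± 0.30 and 2.17 ± 0.41) while Il12rb2 was dim in both. In that comparison 4.55% of all genes were called. Of 10 STAT3-linked genes, Maf and Rora were higher in CD103+Klrg1+ than in CD103-Klrg1- cells (1.98 ± 0.40 and 2.13 ± 0.36), with 2.10% of all genes called. They were also higher in LP Treg than in CD103-Klrg1- cells (2.53 ± 0.40 and 2.27 ± 0.36), with 4.55% of all genes called. These are 2 of the 4 comparisons in which Il17rb was called, and a link to Il17rb was not tested. Bcl6 was lower in homeostatic Foxp3+ than in Foxp3- cells (-1.64 ± 0.31, adjusted p 0.00574), with 1.76% of all genes called.

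The chains were also set against each other over the 9 group means, as a description without a test, since the groups share strains, hosts and tissue. Of 36 pairs, Il10ra and Il17rb had the highest correlation (0.92), followed by Il17ra and Il27ra (0.86) and Il12rb1 and Il27ra (0.79). The lowest were Il6ra with Il12rb1 (-0.69) and with Ifngr1 (-0.66). DEC CD25- was the lowest group for Il17ra, Il27ra and Il12rb1, and its replicate 3 was the lowest array for Il17ra (8.63) and Il27ra (8.75). The part of that array in the correlations of 0.86 and 0.79 was not tested. For Il10ra and Il17rb the CD103+Klrg1+ and LP Treg groups were at the top of both scales and the DEC CD25- group at the bottom of both. In an alternative chosen after seeing the data, without DEC CD25- replicate 3, that group's Il10ra mean was 7.21, the third lowest, and the correlation was 0.89.

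**Figure D5:**
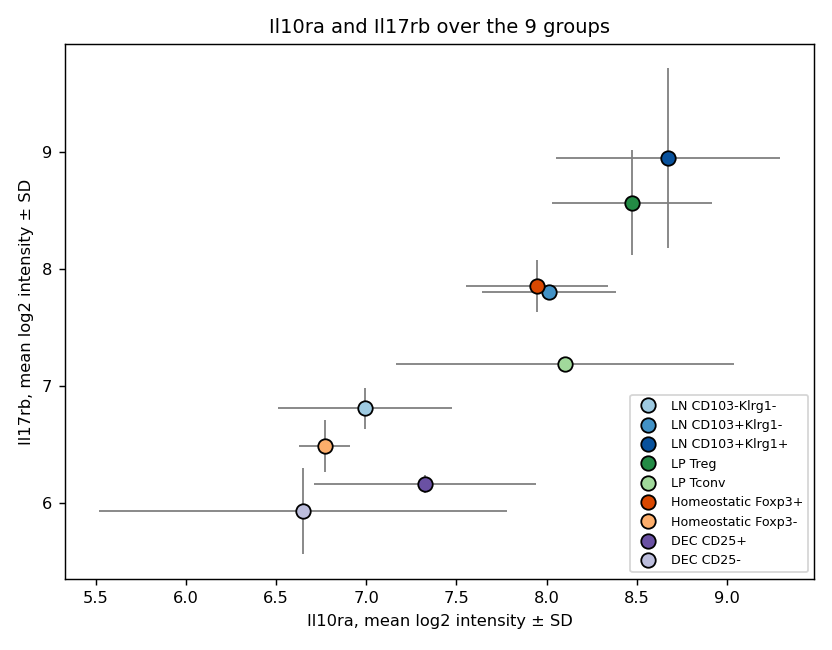
Mean log2 intensity of Il17rb against Il10ra in the 9 groups, with bars of 1 SD between arrays (2 to 4 a group). Groups high in one were high in the other, from DEC CD25- at 6.65 and 5.93 to CD103+Klrg1+ at 8.67 and 8.94; without DEC CD25- replicate 3 the Il10ra mean of that group is 7.21 and no longer the lowest.

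Among the other 12515 tested genes, the pattern most like each chain over the 9 group means was found for the 7 chains whose means spanned at least 1.5 and reached 1 above the filter. For Il17rb these were Fhod1 (0.98), Chdh (0.97) and Sacm1l (0.96). Chdh, which encodes choline dehydrogenase, is the neighbour of Il17rb on chromosome 14. The nearest annotated starts of the 2 genes lie 104 bases apart on opposite strands and point away from each other, so that the AP-1 match printed above lies at that Chdh start as well. Like Il17rb, Chdh was higher in CD103+Klrg1+ than in CD103-Klrg1- cells (2.26 ± 0.44, adjusted p 0.00633), in LP Treg than in LP Tconv (2.26 ± 0.44, adjusted p 0.00610) and in LP Treg than in CD103-Klrg1- cells (1.96 ± 0.44, adjusted p 0.0126). In the homeostatic pair its difference of 1.24 ± 0.36 was not called (adjusted p 0.116), and in the DEC pair it was 0.12 ± 0.34. Chdh was singled out after its values were seen.

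For Il10ra the closest genes were Prdm1 (0.97), which encodes Blimp-1, a factor of effector Treg cells, then Cpped1 (0.96) and M6pr (0.93). For Il12rb1 they were Hsph1 (0.98), a heat shock gene, Asl (0.98) and Ahrr (0.97), the repressor of the aryl hydrocarbon receptor. Cspg4, Dgat1 and Sik2 (0.94, 0.94 and 0.94) were closest to Ifngr1, and Tbc1d1, Dnaaf2 and 5730455P16Rik (0.90, 0.90 and 0.90) to Il6ra. Il6st was closest to Cdip1, Lrmp and Tet2 (0.99, 0.98 and 0.96), and Il27ra to Vav1, Foxred1 and Rbm5 (0.99, 0.98 and 0.98). DEC CD25- replicate 3 was the lowest array for Il10ra (4.96) and Il27ra (8.75), and its part in these likenesses was not tested. By rank correlation the first gene stayed first for Il12rb1 and Il17rb, while Tbc1d1 was the 18th for Il6ra and Cspg4 the 41st for Ifngr1.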

How the data were processed

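Per the labels' protocols, Trizol was used for RNA and the RNA went through 2 rounds of amplification. Intensity is the deposited unit: the authors preprocessed the arrays with RMA in GenePattern, per the series' design text, and left them on a linear scale from 4.706 to 26750. Log2 was taken with no pseudocount. Of 45101 probe sets, 34945 were named by 1 gene, giving 18193 genes. The probe set with the highest mean stood for a gene. Genes with at least 1 group mean above the median of all values (77.0, or 6.27 on the log2 scale) were tested. RMA gives no detection call. limma 3.58.1 (R 4.3.3; lmFit, eBayes, two-sided) fitted a mean for each of the 9 groups to all 23 arrays, with 14 residual degrees of freedom and 3.48 from the prior. Python 3.11.15 with pandas 2.3.3 and matplotlib 3.10.9 made the tables and figures. The fit was tested on simulated data. The labels do not say that pools were separate mice, so p-values measure the spread between pools, and the number of arrays limits precision. No 2 arrays were identical.

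The receptor genes, gene lists, named genes and alternatives were chosen with earlier results of these data known. Named were all receptor chains, up to 4 called genes of each list with the smallest p in a comparison, any called gene moving against its list, and the 3 genes most like a chain over group means. Same-numbered arrays deviated together in the homeostatic (correlations 0.66, 0.58 and 0.49) and DEC groups (0.39, 0.51 and 0.38), so the numbers were read as pairs there, from the data and not from the labels. The main fit did not use pairs, and only the alternative with a replicate block used the numbers. Alternatives were quantile and cyclic loess normalization, the mean of or each probe set of a gene, no filter or one on the overall mean, array weights, the replicate block, the arrays of a comparison alone, and leaving out single arrays or both dim ones. Sequences are from RefSeq.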

Additional observations from a re-analysis of the deposited data

Results flagged for a closer look

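In DEC CD25- cells, the group with 4 arrays, 1 array lay far from the rest for 3 chains. The gap of the extreme array over the range of the group was 0.883 for Il10ra (4.96 against 7.05 to 7.32), 0.832 for Il27ra (8.75 against 10.29 to 10.60) and 0.848 for Il12rb2, against a critical value of 0.829. The extreme array was replicate 3 for Il10ra and Il27ra and replicate 4 for Il12rb2, at 5.55 in a range of dim probe sets. About 1 group in 20 is marked by chance, and 9 chains were looked at. Replicates 3 and 4 are the arrays with the lowest median intensities, and the part of array quality in these values was not tested.

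In all, 3 differences between comparisons were called. Il12rb2 differed between LP Treg and LP Tconv by -1.41 from the homeostatic difference and by -1.45 from the DEC difference. Since LP Treg, homeostatic Foxp3- cells and both DEC groups were dim for Il12rb2, these are fitted values and not measured sizes. They draw on LP Tconv, a group that admitted the gene to the test. Il6ra differed by -2.68 between the LP and DEC comparisons. Strain, host and treatment differ between these systems and cannot be told apart.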

How the results depend on the processing

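Of 1735 values of single chains under an alternative, 1671 kept their side of the threshold, 35 lost a call and 29 gained one. Of the chains called in the main fit, 0 reversed. Directions of uncalled chains did change in places, as for Il10ra in LP Treg over LP Tconv (0.37, range -0.29 to 1.04). Counts of called chains changed as follows, and the cause was not tested. For LP Treg over LP Tconv the count of 2 became 4 with quantile normalization, 4 with cyclic loess, 4 with the replicate block, 4 without both dim DEC CD25- arrays, 1 with the filter on the overall mean (which leaves out Il12rb2), 1 with array weights and 0 with its 4 arrays alone. For the homeostatic pair the count of 1 became 4 with array weights and 2 with its arrays alone. For CD103+Klrg1+ over CD103-Klrg1- the count of 1 became 2 with array weights and 0 with its arrays alone, and for CD103+Klrg1+ over CD103+Klrg1- 0 became 1 with array weights. For LP against homeostatic, 1 became 2 with cyclic loess, array weights, its arrays alone or without both dim arrays, and 0 with the filter on the overall mean. For LP against DEC, 2 became 1 with the mean of probe sets or the filter on the overall mean and 0 with array weights or its arrays alone, and for homeostatic against DEC 0 became 1 with array weights. Leaving out 1 array at a time gave 1 to 2 for LP Treg over LP Tconv, 0 to 1 for DEC, 0 to 1 for CD103+Klrg1+ over CD103+Klrg1-, 2 to 4, 1 to 3 and 0 to 2 for LP Treg over CD103-Klrg1-, CD103+Klrg1- and CD103+Klrg1+, 0 to 1 for LP against homeostatic and 0 to 2 for LP against DEC. The DEC count of 1, without CD25- replicate 1, was Il6ra (1.35, adjusted p 0.0274).

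With the replicate block the counts in the other comparisons stayed within 1.5 times, at 1 for the homeostatic pair, 0 for DEC and 3 for LP Treg over CD103+Klrg1+ (Il6ra was added). Same-numbered residuals of LP Treg and LP Tconv correlated at -0.07 and those of LP Treg and lymph node arrays at -0.19 to -0.02, so the block has no backing there. Among the lymph node subsets, which share only 2 numbers, they correlated at 0.39, 0.72 and 0.37, and the block changed no call of a chain there. Counts over all tested genes moved by over 1.5 times as follows. In LP Treg over LP Tconv 338 became 221 with array weights, 17 with the arrays alone, 557 without the dim arrays, 513 with the replicate block and 509 with every probe set tested. In the homeostatic pair 220 became 1236, 753, 435 and 378 under the first 4 of these, and in DEC 62 became 193, 5 and 100 with weights, arrays alone and block. In CD103+Klrg1- over CD103-Klrg1- 12 became 99 with weights, 28 without the dim arrays, 28 with cyclic loess, and 24 with the block. In CD103+Klrg1+ over CD103-Klrg1- 263 became 599, 398 and 407 with weights, without the dim arrays and with every probe set, and over CD103+Klrg1- 81 became 264 and 134 under the first 2. LP Treg over CD103-Klrg1- went from 570 to 1494, 996, 1082, 959 and 1088 with weights, arrays alone, without the dim arrays, block and every probe set, over CD103+Klrg1- from 329 to 1347, 773, 650, 592 and 691, and over CD103+Klrg1+ from 257 to 648, 448, 451 and 511 with weights, without the dim arrays, block and every probe set. For LP against homeostatic 97 became 179 and 166 without the dim arrays and with the block, and 152 with every probe set. For LP against DEC 126 became 80 and 25 with weights and arrays alone and 203 with every probe set, and for homeostatic against DEC 42 became 292 and 85 with weights and with the block. The highest group of each chain stayed the same under quantile and cyclic loess normalization, and the lowest did so for all but Il17ra under both and Il10ra under loess. With 2 to 4 arrays a group, differences of about 1 on the log2 scale were often not detectable.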
